A study of Mus musculus with 4 samples.

Results

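The genes of the proteasome were examined for H3K79me2, a dimethyl mark on a lysine of histone H3, in dendritic cells derived from the bone marrow of C57BL/6J mice (BMDCs). These are antigen-presenting cells grown in culture. One culture condition was 18 mM lysine for 6 h and the other was PBS, for which the labels give no time. The assay was ChIP-seq, in which chromatin is precipitated with an antibody to the mark and its DNA sequenced, with 1 H3K79me2 library and 1 input library per condition, 4 samples in all. Only the authors' peak lists of the H3K79me2 libraries were analysed, 9805 peaks in lysine and 11926 in PBS. The genes were the protein-coding RefSeq genes of the build GRCm38 whose symbol starts with Psma, Psmb, Psmc, Psmd or Psme and a number, which gave 46 of 21900 genes. Of these, 44 encode subunits, activators or assembly factors of the proteasome. The other two, Psmc3ip and Psme3ip1, encode proteins named for binding a proteasome protein and are no subunits. They are counted among the 46 and also given apart.

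The proteasome degrades proteins tagged with ubiquitin. Its barrel, the 20S core, is built of rings of alpha subunits (Psma genes), which gate the entrance, and rings of beta subunits (Psmb genes), some of which carry the protease sites. The 19S cap consists of a base, with the ATPases that unfold the substrate (Psmc genes), and a lid, which holds the ubiquitin-removing subunit (Psmd genes). In cells that present antigen, and under interferon, the catalytic beta subunits are replaced by Psmb8, Psmb9 and Psmb10 and the core is capped by the PA28 activator of Psme1 and Psme2, which together favour peptides for MHC class I. H3K79me2 is made by the methyltransferase Dot1l and is known for lying over the first part of transcribed genes.

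With 1 library per condition there is no spread between replicates to set a difference against, so nothing was tested and all values are descriptions of these libraries. Read totals are not part of the lists and the depth is unknown. A gene without a peak can carry the mark below the calling threshold. Intervals of shares are 95% Clopper-Pearson intervals over genes and cover counting error only. Of 10 genes taken as dendritic cell markers, picked after the files were seen, 4 had a peak in lysine and 6 in PBS. Cd74 had 2134 bp under peaks in lysine and 900 bp in PBS, Itgax 431 and 935 bp, Flt3 421 and 442 bp, Irf8 146 and 33 bp, Ciita 0 and 316 bp and Zbtb46 0 and 310 bp. H2-Aa, Irf4, Spi1 and Csf2rb had 0 bp in both.

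H3K79me2 peaks lay on most proteasome genes, in fewer of them in lysine than in PBS. A peak touched 27 of the 46 genes in lysine (58.7%, interval 43.2 to 73.0) and 35 in PBS (76.1%, 61.2 to 87.4). Over all protein-coding genes the shares were 31.4% in lysine and 34.0% in PBS. Among genes of like length the shares were similar. Of the 22 genes between the length quartiles of the 46 (5592 and 22401 bp), 15 had a peak in lysine (68.2%) and 17 in PBS (77.3%), compared with 32.8% and 35.4% of the 7099 protein-coding genes of that length. The peaks covered little of the genes. Only 2 of the 46 genes (4.35%) in lysine and 5 (10.9%) in PBS had at least 500 bp of their length under peaks and are called marked here, with 9.02% and 11.4% over all genes. The share with any peak was thus above the background in both libraries. The share of marked genes, which rests on 2 and 5 genes, was below it in lysine and near it in PBS. Between the length quartiles 1 of the 22 genes (4.55%) was marked in each library. Of the protein-coding genes of that length 7.03% were marked in lysine and 8.97% in PBS, so the contrast between the libraries was not seen there. The libraries pool many cells, so fewer cells with the mark and less of it per cell cannot be told apart. A further protein-coding gene lies over part of 8 of the 46 genes, among them Psma4, Psmd1, Psmd10, Psme1 and Psme3ip1. A peak that reaches both genes is counted for both, as at Psma4, Psmd10 and Psme3ip1. The peaks of Psmd1 and Psme1 did not reach the other gene.

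**Figure D1:**
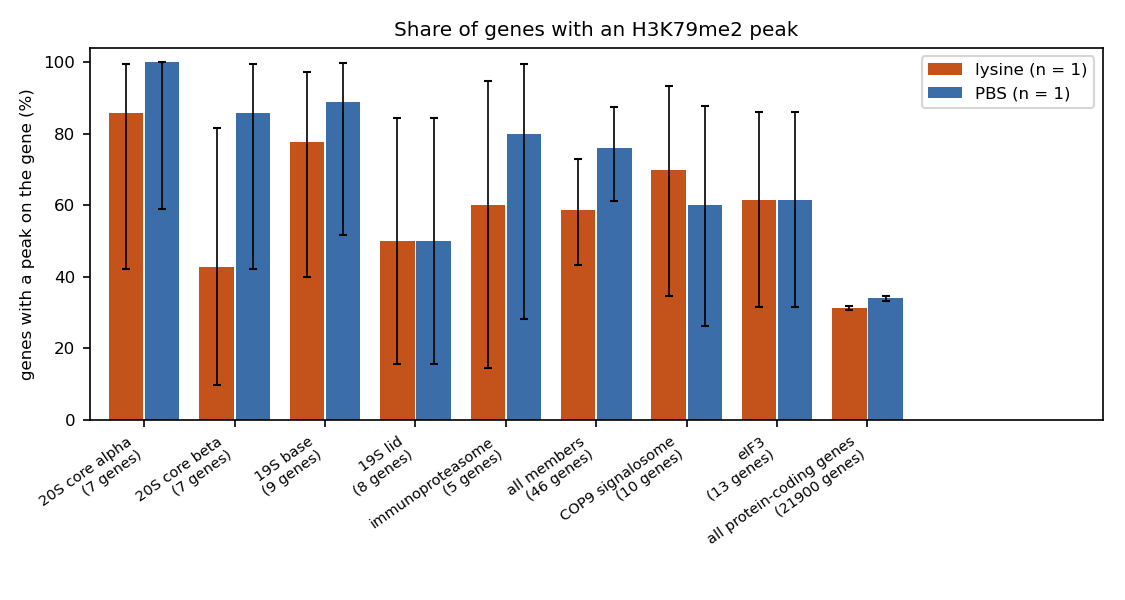
Share of genes (%) with at least 1 bp under a broad H3K79me2 peak, for parts of the proteasome, all 46 genes, 2 complexes built like the lid, and all protein-coding genes; bars are the lysine and the PBS library (n = 1 each) and lines are 95% Clopper-Pearson intervals. The share over the 46 genes is 58.7% in lysine and 76.1% in PBS, against 31.4% and 34.0% of all genes, and the intervals of the single parts are wide.

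The peaks sat on the start sites. Start sites were taken from RefSeq promoter windows of GRCm38.p6 that run from 250 bases before to 50 bases after a start. Such windows were at hand for 39 of the 46 genes, 4 of which have 2 windows. Psma8, Psmb1, Psmb2, Psmb7, Psmc3, Psmd3 and Psmd7 had none. A peak lay on a window of 20 of these 39 genes in lysine (51.3%) and 29 in PBS (74.4%), against 26.7% and 28.1% of all genes with a window. In lysine alone it was 1 gene and in PBS alone 10, against 4.31% and 5.77% of all genes with a window, with or without a peak. Of the 29 genes with a PBS peak on a window, 10 had none in lysine (34.5%, interval 17.9 to 54.3). Among all genes with such a PBS peak it was 20.5%, which lies inside that interval. Of the 20 with a lysine peak on a window, 1 had none in PBS (interval 0.127 to 24.9%), against 16.2% of all such genes. Of the 22 lysine peaks on genes with a window 20 spanned a start site, and of the 31 PBS peaks 29 did. In the whole lists 3859 of 9805 lysine and 4105 of 11926 PBS peaks spanned a protein-coding start site. The whole lists also hold peaks away from genes with a window, so these counts have a wider base. Each of the 5 lysine and 5 PBS peaks on genes without a window spanned an end of its gene. The peaks reached further upstream than into the gene. Among peaks that spanned a start the median reach was 317.5 bp upstream and 132 bp downstream in lysine, and 305 and 162 bp in PBS. Over all protein-coding start sites under a peak it was 303 and 188 bp in lysine and 311 and 194 bp in PBS, so a centre upstream of the start was common to the lists, at 67.9% of such sites in lysine and 67.0% in PBS. As a consequence 49.6% of the width of the peaks on the 46 genes lay outside the gene in lysine and 52.0% in PBS. Totals inside genes are therefore given together with those of the genes widened by 1 kb on each side.

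**Figure D2:**
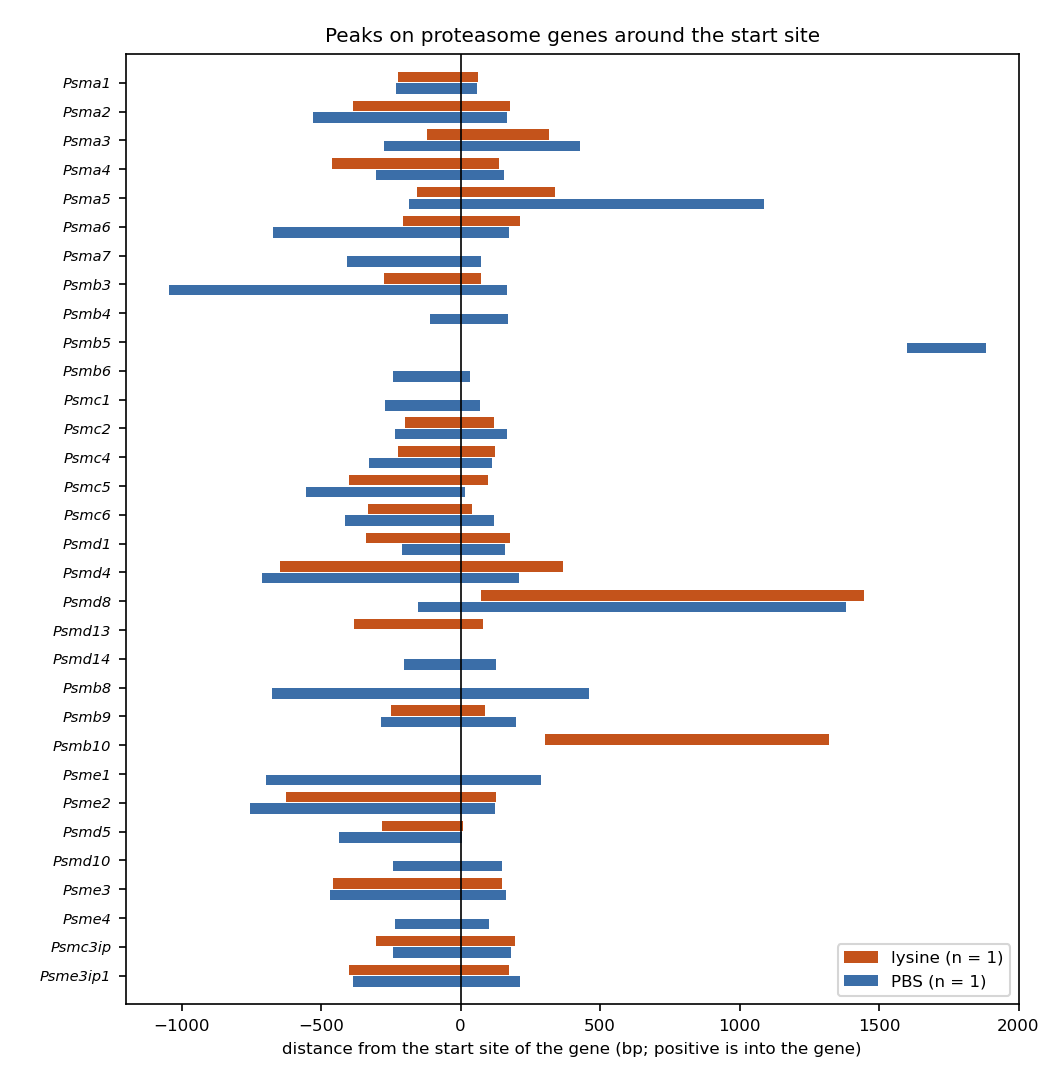
Peaks on proteasome genes with a RefSeq start site, drawn as bars from end to end against the distance from the start (bp, positive into the gene), lysine above PBS for each gene (n = 1 library each). Most bars cross 0 and reach further to the upstream side. The peaks of Psmb5 (PBS) and Psmb10 (lysine) lie inside the gene, and a PBS peak of Psme3ip1 that lies inside the gene is out of range.

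The promoter windows of the marked genes that lay under a peak in either library are shown next, 5' to 3' in the direction of the gene. They do not hold all of the mark at these genes. The lysine peak of Psmd8 and the inner PBS peak of Psme3ip1 lay outside the windows. They are Psme3ip1 (chr8:94601677-94601976, minus strand), Psma6 (chr12:55398575-55398874, plus), Psma3 (chr12:70974373-70974672, plus), Psma5 (chr3:108256676-108256975, plus) and Psmd8 (chr7:29180624-29180923, minus). Capitals mark a CCAAT box (CCAAT or its complement), an antioxidant response element (TGACNNNGC), the type of site that Nfe2l1 binds in proteasome genes, or an interferon-stimulated response element (GAAA, any 2 bases, GAAA). All were searched on both strands.
Psme3ip1: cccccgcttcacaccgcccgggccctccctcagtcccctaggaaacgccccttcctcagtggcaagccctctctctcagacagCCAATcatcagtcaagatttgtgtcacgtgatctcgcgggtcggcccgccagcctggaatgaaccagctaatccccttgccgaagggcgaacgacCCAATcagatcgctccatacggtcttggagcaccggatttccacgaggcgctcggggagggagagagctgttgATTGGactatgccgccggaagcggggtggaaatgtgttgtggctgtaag
Psma6: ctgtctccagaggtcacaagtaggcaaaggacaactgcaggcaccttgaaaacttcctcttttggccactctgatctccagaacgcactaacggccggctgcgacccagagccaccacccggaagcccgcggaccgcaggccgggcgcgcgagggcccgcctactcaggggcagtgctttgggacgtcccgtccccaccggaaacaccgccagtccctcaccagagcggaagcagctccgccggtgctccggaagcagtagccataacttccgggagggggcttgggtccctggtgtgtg
Psma3: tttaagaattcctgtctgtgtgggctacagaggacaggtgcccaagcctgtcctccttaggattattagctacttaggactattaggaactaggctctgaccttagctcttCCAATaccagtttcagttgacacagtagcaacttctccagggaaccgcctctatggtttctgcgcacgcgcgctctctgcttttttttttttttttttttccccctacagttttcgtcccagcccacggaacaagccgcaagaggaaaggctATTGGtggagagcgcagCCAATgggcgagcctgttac
Psma5: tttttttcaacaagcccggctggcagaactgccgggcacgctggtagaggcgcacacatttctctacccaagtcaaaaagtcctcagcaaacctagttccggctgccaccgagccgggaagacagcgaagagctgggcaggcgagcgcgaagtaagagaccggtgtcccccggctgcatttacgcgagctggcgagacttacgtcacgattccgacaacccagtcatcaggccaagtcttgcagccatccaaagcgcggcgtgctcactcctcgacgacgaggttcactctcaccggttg
Psmd8: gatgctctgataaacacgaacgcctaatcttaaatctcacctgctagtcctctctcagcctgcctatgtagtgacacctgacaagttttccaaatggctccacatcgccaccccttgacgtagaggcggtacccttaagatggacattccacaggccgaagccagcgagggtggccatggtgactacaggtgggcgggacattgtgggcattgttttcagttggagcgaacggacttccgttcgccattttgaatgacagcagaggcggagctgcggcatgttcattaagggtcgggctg
Lysine peaks covered 300 of the 300 bases at Psme3ip1, 258 at Psma6, 172 at Psma3, 208 at Psma5 and 0 at Psmd8. PBS peaks covered 300, 300, 300, 234 and 203 bases at these genes. An antioxidant response element was found in the windows of 6 of the 39 genes (15.4%), Psmb5, Psmb6, Psmc6, Psmd12, Psmd9 and Psme4, and in 14.8% of the 17492 protein-coding genes with a window. A CCAAT box was found in 16 (41.0%), against 42.3% of all. Both shares were near those of all promoters. The interferon-stimulated element was found in 4 (10.3%), Psmb3, Psmd4, Psmd9 and Psme1, against 3.94% of all. A match is a run of letters and not a bound site.

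Some of these promoters serve another gene as well. Of the 39 genes 8 (20.5%) had the start of another protein-coding gene on the opposite strand within 1000 bp upstream, against 8.48% of all genes with a window. Psma2 faces Mrpl32, a mitochondrial ribosomal protein gene, at 205 bp, Psmb9 faces Tap1, the peptide transporter subunit, at 226 bp, and Psma7 faces Ss18l1 at 19 bp. Psmc5 faces Ftsj3 at 101 bp, Psmd10 faces Atg4a at 196 bp, Psme3ip1 faces Rspry1 at 215 bp, and Psmd13 faces Sirt3 and Psme2 faces Rnf31. A peak lay on the window of 6 of these 8 genes in lysine and 7 in PBS, and on 14 and 22 of the other 31. Psmc2 is counted among the 31, but its peaks in both libraries also reached the protein-coding gene Dnajc2. No promoter window of Dnajc2 lay under them, but only 17492 of the 21900 protein-coding genes have a window. A start of Dnajc2 without a window would be missed here. For all genes the shares were 68.4% in lysine and 71.2% in PBS with such a neighbour and 22.8% and 24.1% without. The peak at such a promoter cannot be assigned to one of its genes. The windows of Psma2 (chr13:14612992-14613291, plus) and Psmb9 (chr17:34187281-34187580, minus) are shown as examples, picked after their values were seen.
Psma2: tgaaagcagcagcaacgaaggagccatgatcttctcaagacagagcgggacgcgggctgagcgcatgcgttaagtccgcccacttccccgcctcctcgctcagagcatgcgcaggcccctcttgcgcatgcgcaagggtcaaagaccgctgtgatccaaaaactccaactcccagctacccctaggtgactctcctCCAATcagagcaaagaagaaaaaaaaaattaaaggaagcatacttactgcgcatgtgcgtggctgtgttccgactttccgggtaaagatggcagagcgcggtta
Psmb9: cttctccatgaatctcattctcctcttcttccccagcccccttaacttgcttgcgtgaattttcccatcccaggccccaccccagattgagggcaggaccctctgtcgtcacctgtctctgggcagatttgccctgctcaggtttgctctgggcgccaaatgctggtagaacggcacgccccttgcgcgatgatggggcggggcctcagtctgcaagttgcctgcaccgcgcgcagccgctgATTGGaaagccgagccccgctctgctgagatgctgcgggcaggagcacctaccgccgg
Psma2 carried the strongest peak of any subunit gene in each list, with a fold enrichment of 11.2 in lysine (width 564 bp, −log10 q 23.7, above 99.5% of the lysine peaks) and 8.90 in PBS (698 bp, 16.8, above 97.9% of the PBS peaks). Only the peak on the start of Psme3ip1 was stronger among the 46 genes, with folds of 12.5 in lysine and 13.7 in PBS. Fold enrichment and −log10 q are the authors' values and rank peaks within their own list. The median fold of the peaks on the 46 genes was 4.86 in lysine, where the whole list had 4.48, and 4.61 in PBS, where the whole list had 4.52.

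Inside genes the share with less covered length in lysine was near the background. Of the 37 genes with a peak in either library 24 were shorter in lysine (64.9%) and 13 longer (35.1%), against 58.2% and 41.5% of the 8472 protein-coding genes with a peak in either. Out of all 46 and all 21900 genes, with or without a peak, the shares were 52.2% and 22.5% for shorter and 28.3% and 16.1% for longer. The direction of 12 of the 37 turned under at least 1 alternative setting, namely Psma1, Psma2, Psma4, Psma6, Psmb9, Psmc4, Psmc5, Psmd3, Psmd5, Psmd7, Psme2 and Psme3. A difference of at least 500 bp was found in 2 genes that were shorter in lysine, Psma5 and Psme3ip1, and in 1 that was longer, Psmb10, against 4.26% and 1.83% of all genes. The total was 7160 bp in lysine and 10666 bp in PBS, a ratio of 0.671, compared with 0.796 over all protein-coding genes. Among the 22 genes between the length quartiles it was 3312 bp in lysine and 3362 bp in PBS, with 9 shorter and 9 longer and a ratio of 0.985, above the 0.848 of all genes of that length. Psme3ip1 alone differed by -1371 bp, and for the 44 proteasome genes the total was 6553 bp in lysine and 8703 bp in PBS, a ratio of 0.753. With the genes widened by 1 kb the same numbers, 27 in lysine and 35 in PBS, had a peak (33.1% and 35.8% of all genes), and 30 of the 37 with a peak were shorter in lysine (81.1%) and 7 longer (18.9%), against 59.1% and 40.8% of the 8849 widened genes with a peak in either. Out of all 46 and all 21900 genes these were 65.2% and 23.9% for shorter and 15.2% and 16.5% for longer. The widened total was 14214 bp in lysine and 22631 bp in PBS (ratio 0.628, compared with 0.829 over all genes), and for the 22 genes between the length quartiles 7970 bp and 10271 bp (ratio 0.776, compared with 0.868 over all genes of that length). The median difference among genes with a peak, lysine minus PBS, was -44 bp inside the 46 genes and -38 bp over all genes, and -148 and -61 bp with widening.

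Where both libraries had a peak on a gene, the lysine peak was mostly the narrower one. This was so in 20 of 25 genes (80.0%), compared with 57.9% of the 5844 genes of the genome with a peak in both. The summed width per gene had a median of 438 bp in lysine and 535 bp in PBS. In each of the 25 genes a lysine peak overlapped a PBS peak by at least 1 bp. The inner PBS peak of Psme3ip1 had no lysine partner. No such count over all genes with a peak in both is given here, so the overlap is not particular to these genes. Of the 35 genes with a PBS peak, 10 had none in lysine (28.6%, interval 14.6 to 46.3), against 21.5% of all genes with a PBS peak, which lies inside that interval. Of the 27 genes with a lysine peak 2 had none in PBS (7.41%, 0.910 to 24.3), against 14.9% of all. Per gene of the genome the shares were 7.32% for a peak in PBS alone and 4.68% for lysine alone.

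**Figure D3:**
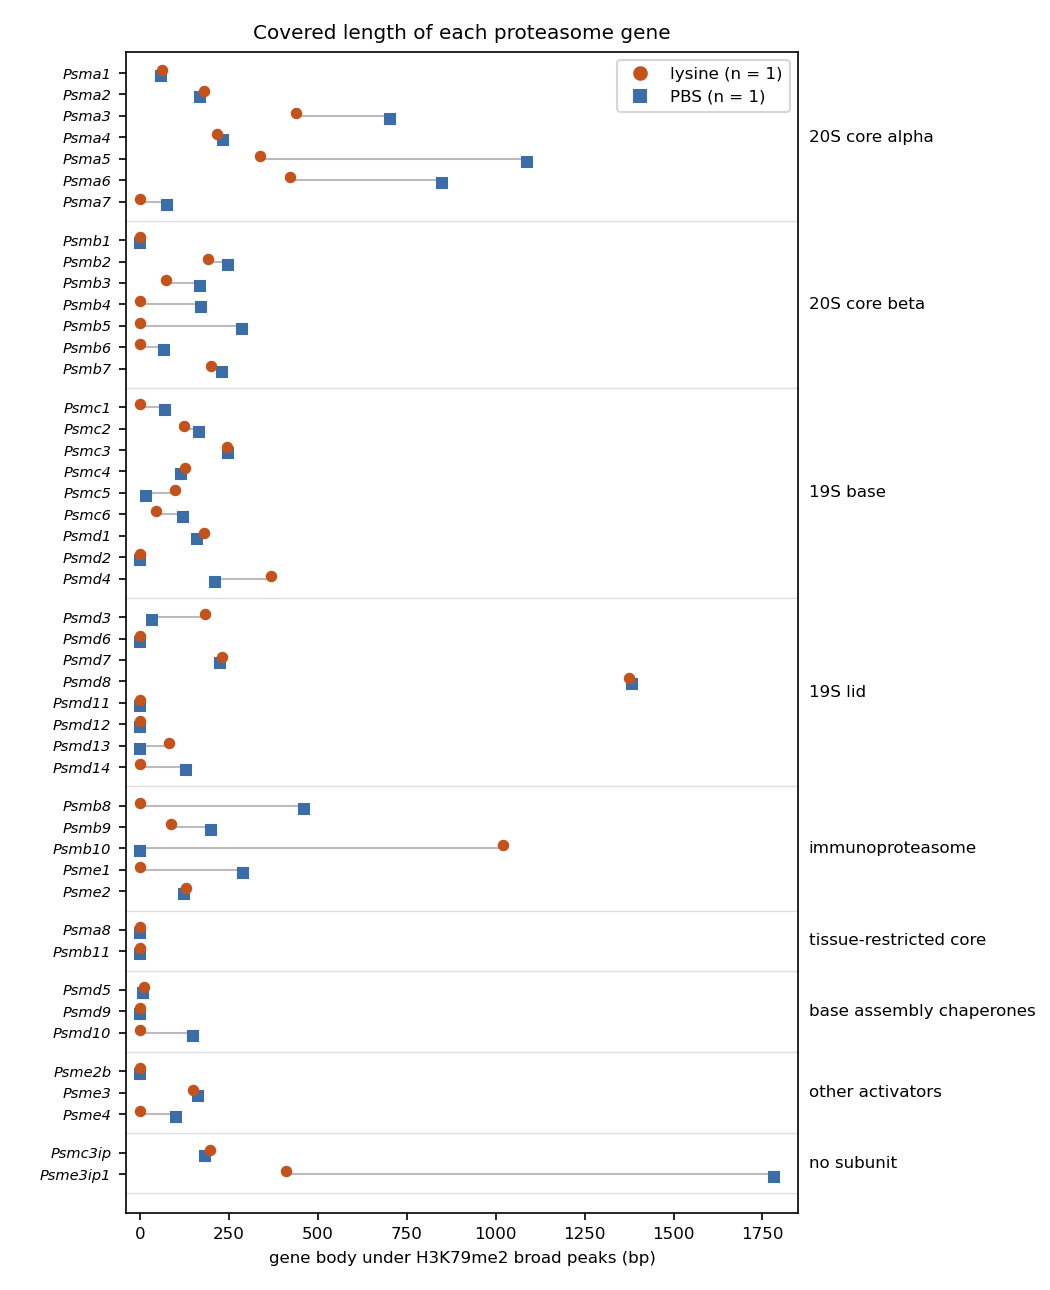
Length of each of the 46 genes under broad H3K79me2 peaks (bp), by part of the proteasome, as circles for lysine and squares for PBS (n = 1 library each) joined by a line. In the 20S core 11 of 14 genes, 13 of which have a peak, lie lower in lysine. Over all protein-coding genes with a peak in either library 58.2% do. The base and the lid hold genes on either side. Psmb10 is the only gene above 500 bp in lysine with 0 bp in PBS.

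Of core, base, lid and immunoproteasome, the alpha subunits of the core had a peak most often, on 6 of the 7 genes in lysine and on all 7 in PBS. Of these 7 genes 5 were shorter in lysine and 2 longer, and 0 were marked in lysine against 3 in PBS. Each part is to be set beside all protein-coding genes. Of these 31.4% had a peak in lysine and 34.0% in PBS, and 9.02% and 11.4% were marked. Psma5 had 338 bp in lysine and 1087 bp in PBS (chromosome 3, 108256926 to 108279952). Its lysine peak of 496 bp ended 337 bp into the gene, and its PBS peak of 1271 bp went on to 1086 bp, with a fold of 4.86 in lysine and 6.83 in PBS. By the narrow blocks that the authors' gapped lists give inside the broad regions, Psma5 had 338 bp in lysine and 385 bp in PBS, so most of the difference lay outside the narrow block of the PBS region. Psma6 had 421 bp in lysine and 848 bp in PBS (chromosome 12, 55384222 to 55418459). Both its peaks lay at the inner one of its 2 annotated start sites, and the first had no peak. Its lysine peak had a −log10 q of 6.61 and its PBS peak one of 4.77, so that at a minimum of 5 the PBS value was 0 bp and the direction turned. By narrow blocks Psma6 turned too, with 421 bp in lysine and 399 bp in PBS. Psma3 had 438 bp in lysine and 702 bp in PBS (chromosome 12, 70969283 to 70995877), also at a start site inside the span of the gene. A further PBS peak of 449 bp before the gene, over the tRNA gene n-TKctt17, had no lysine partner.

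The remaining alpha genes differed by less than 100 bp. Psma1 had 62 bp in lysine and 59 bp in PBS, Psma2 178 and 167 bp, and Psma4 216 and 234 bp. These are values without a clear order, and the sign of each of these 3 differences turned when the genes were widened (-2, -134 and 137 bp). Psma7 had 0 bp in lysine and 75 bp in PBS, from a PBS peak of 484 bp that lay mostly over the facing gene Ss18l1.

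Of the beta subunits of the core 3 had a peak in lysine and 6 in PBS, the widest gap of the parts. Psmb2 had 190 bp in lysine and 246 bp in PBS, Psmb3 73 and 168 bp, and Psmb7 198 and 229 bp. Each of these 3 had a partner peak at the same end of the gene. At Psmb3 the PBS peak of 1214 bp ran 1046 bp upstream of the start, into Pcgf2, and the lysine peak of 348 bp ran 275 bp. Psmb4 (0 bp in lysine and 170 bp in PBS), Psmb5 (0 and 286 bp) and Psmb6 (0 and 66 bp) had a peak in PBS alone. Psmb5, the subunit with the chymotrypsin-like site, and Psmb6, with the caspase-like site, are the ones that Psmb8 and Psmb9 replace in the immunoproteasome. The Psmb5 peak lay 1599 to 1884 bp into the gene and was the only PBS peak on a constitutive subunit with a window that did not span a start. Psmb1 had 0 bp in both. Taking alpha and beta genes as one group, 11 of 14 were shorter in lysine (78.6%) and 2 longer, with 2114 bp in lysine and 4337 bp in PBS, a ratio of 0.487. Of the 14 genes 13 had a peak, 4 of them in PBS alone. Shorter in lysine were 22.5% of all protein-coding genes, and 58.2% of those with a peak in either library. With widening the core had 3974 bp in lysine and 8214 bp in PBS, 12 genes being shorter and 1 longer. For all widened genes with a peak in either the share shorter was 59.1%.

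The base of the cap showed no such one-sided difference inside the genes. A peak lay on 7 of 9 genes in lysine and on 8 in PBS, with 1179 bp in lysine and 1104 bp in PBS, and 4 genes were shorter in lysine and 4 longer. Psmd4, a ubiquitin receptor, had 367 bp in lysine and 210 bp in PBS. Among the ATPases Psmc3 had 244 bp in lysine and 247 bp in PBS, Psmc2 122 and 166 bp, Psmc4 125 and 114 bp, and Psmc6 44 and 121 bp. Psmc5 had 99 bp in lysine and 17 bp in PBS, but its PBS peak reached further upstream over the facing Ftsj3, and the widened gene differed by -74 bp. Psmd1, the scaffold of the base, had 178 bp in lysine and 159 bp in PBS. Psmc1 had 0 bp in lysine and 70 bp in PBS, and its PBS peak, with a −log10 q of 5.80 above 70.9% of the list, was one of the stronger ones without a partner. Psmd2 had 0 bp in both. With widening the base had 3449 bp in lysine and 3956 bp in PBS, and 6 genes were shorter and 2 longer, so that the sign of the total turned.

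In the lid 4 of 8 genes had a peak in each library. Psmd8 was the one marked gene of the complex in both libraries, with 1374 bp in lysine and 1383 bp in PBS (chromosome 7, 29174187 to 29180673). It was also the one gene whose peaks ran more than 1000 bp into the gene in both libraries, to 1446 bp from the start in lysine and 1382 bp in PBS, and its lysine peak began 73 bp after the start. Psmd7 had 229 bp in lysine and 224 bp in PBS. Psmd3 had 182 bp in lysine and 34 bp in PBS, with peaks of 518 and 479 bp shifted against each other at the same end. Psmd14, the ubiquitin-removing enzyme of the lid, had 0 bp in lysine and 129 bp in PBS, and Psmd13 81 and 0 bp. The Psmd13 peak, shared with Sirt3, was one of only 2 lysine peaks on the 46 genes without a PBS partner and had a −log10 q of 5.31, above 68.9% of the lysine list. Psmd6, Psmd11 and Psmd12 had 0 bp in both. The lid summed to 1866 bp in lysine and 1770 bp in PBS, and to 2711 and 2824 bp with widening, so that its sign turned as well.

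The genes of the immunoproteasome all had a peak in one library or the other, and they differed in both directions. Psmb8 had 0 bp in lysine and 460 bp in PBS, where a peak of 1135 bp spanned the start (chromosome 17, 34198195 to 34201454). Its neighbour Psmb9, which lies in the same cluster of MHC class II and peptide transporter genes, had 87 bp in lysine and 198 bp in PBS, from peaks of 336 and 482 bp over the promoter shared with Tap1. Psmb10 had 1019 bp in lysine and 0 bp in PBS (chromosome 8, 105935728 to 105938392). That lysine peak was among the weakest in the library. Its −log10 q of 1.59 was above only 3.85% of the lysine peaks and its fold was 3.26, it lay 303 to 1321 bp into the gene, and it held no narrow block. Once peaks with a −log10 q under 2 were dropped, this one among them, the immunoproteasome genes differed by -855 bp in total, against 164 bp with it (1234 bp in lysine and 1070 bp in PBS).

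The PA28 genes Psme1 and Psme2 stand next to each other on chromosome 14. Psme1 had 0 bp in lysine and 288 bp in PBS, from a PBS peak of 987 bp over its start, and Psme2 had 128 bp in lysine and 124 bp in PBS, from peaks of 754 and 878 bp over its start and the facing Rnf31. The window of Psme1 (chr14:55578244-55578543, plus) is shown because it is the one immunoproteasome window with an interferon-stimulated element, which stands in capitals. It was picked after its values were seen.
Psme1: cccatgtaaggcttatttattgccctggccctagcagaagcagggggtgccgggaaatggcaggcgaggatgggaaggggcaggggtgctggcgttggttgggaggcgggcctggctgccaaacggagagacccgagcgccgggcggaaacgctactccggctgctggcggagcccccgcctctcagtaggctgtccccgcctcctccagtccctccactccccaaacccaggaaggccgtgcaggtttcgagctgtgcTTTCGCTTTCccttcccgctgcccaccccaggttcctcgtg
In PBS its 300 bases lay under the peak, and in lysine 0 did. With widening the 5 immunoproteasome genes had 2109 bp in lysine and 3482 bp in PBS, a ratio of 0.606 beside 0.484 for the 20S core, 0.872 for the base and 0.960 for the lid. With 5 to 14 genes per part and 1 library per condition, these ratios could not be told apart by any test. The PBS peaks of Psmb8 and Psme1 and both peaks of Psmb9 had a −log10 q of 2.11 to 3.48, below the medians of 3.85 in the lysine list and 4.03 in the PBS list. At Psme2 the PBS peak had 4.14, above the PBS median, and the lysine peak 2.15.

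Subunits with a restricted tissue range had no peak. Psma8, known from the testis, and Psmb11, known from the cortex of the thymus, had 0 bp in both libraries. Of the chaperones that assemble the base, Psmd10 (gankyrin) had 0 bp in lysine and 148 bp in PBS, over a start it shares with Atg4a. Its PBS peak had a −log10 q of 6.99 and was the strongest of the 46 genes' PBS peaks without a lysine partner. Psmd5 had 12 bp in lysine and 9 bp in PBS, with nearly all of its peaks upstream, and Psmd9 0 bp in both. Of the other activators, the nuclear Psme3 (PA28 gamma) had 148 bp in lysine and 163 bp in PBS and Psme4 (PA200) 0 and 102 bp. Psme2b, which has the name of a second Psme2 gene, had 0 bp in both. Among the genes that are no subunits, Psmc3ip had 196 bp in lysine and 181 bp in PBS. Psme3ip1 had 411 bp in lysine and 1782 bp in PBS, and 1332 bp of the PBS value came from a weak peak inside the gene (fold 3.30, −log10 q 1.66) with no lysine partner.

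The strongest PBS peaks on the 46 genes all had a lysine partner, as did nearly all PBS peaks of that strength at start sites. Below a −log10 q of 8 the shares rest on few peaks. All 7 PBS peaks on the 46 genes with a −log10 q of at least 8 had one. Of the 6 from 5 to 8 it was 4 (66.7%), of the 18 from 3 to 5 it was 11 (61.1%), and of the 5 below 3 it was 3 (60.0%). Among all PBS peaks that span a protein-coding start site the shares were 98.8%, 89.5%, 73.6% and 56.4%. With 5 to 18 peaks per class below 8, a trend on the 46 genes or a departure from these shares cannot be read. The median −log10 q was 3.42 for the 11 peaks without a partner and 4.75 for the 25 with one. In the lysine list 25 of 27 peaks had a PBS partner (92.6%), against 85.6% of the lysine peaks at start sites.

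**Figure D4:**
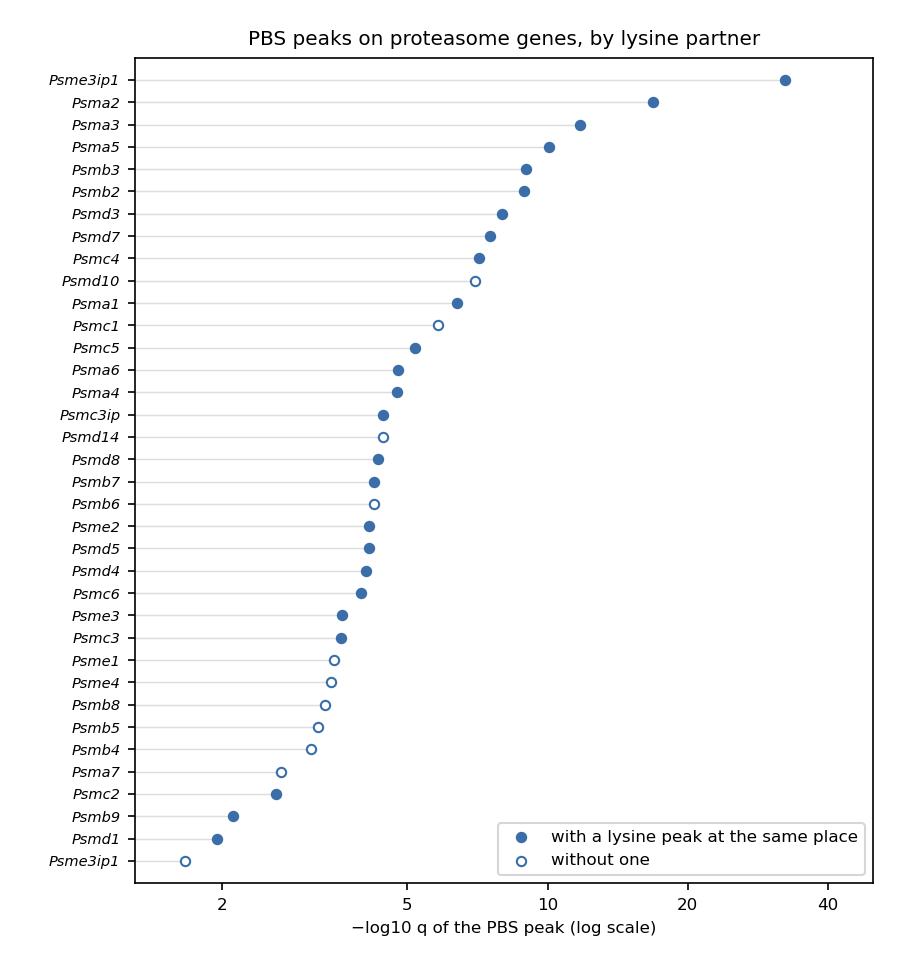
The 36 PBS peaks on proteasome genes ordered by the authors' −log10 q (log scale), filled where a lysine peak overlaps by at least 1 bp and open where none does (n = 1 library). The open circles lie between 1.66 and 6.99, and all peaks above 7 are filled.

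Genes that act with the proteasome were set beside it as lists. Over all protein-coding genes 31.4% had a peak in lysine and 34.0% in PBS, and 9.02% and 11.4% were marked. Of 16 further assembly factors and cofactors 12 had a peak in lysine and 10 in PBS, and 5 were marked in lysine and 4 in PBS. Sem1, a small lid subunit outside the Psm names, had 635 bp in lysine and 1239 bp in PBS. Ecpas, an adaptor of the proteasome, had 0 and 1683 bp, and the assembly chaperone Psmg4 had 627 and 0 bp. Of 7 regulators of proteasome transcription 5 had a peak in lysine and 7 in PBS. Nfe2l2 had 1556 bp in lysine and 3102 bp in PBS, the small Maf genes Maff and Mafg had 1829 and 885 bp and 0 and 1528 bp, and Nfe2l1, the main activator of proteasome genes when the proteasome is inhibited, had 755 and 645 bp. Of 12 genes of ubiquitin and substrate delivery 8 had a peak in lysine and 7 in PBS. Ubb, which encodes a ubiquitin chain, had 937 bp in lysine and 487 bp in PBS, while the shuttle factor Rad23b had 116 and 1361 bp. Of 8 genes of peptide transport and trimming 5 had a peak in lysine and 6 in PBS. Tapbp had 0 bp in lysine and 1361 bp in PBS, Tap2 611 and 668 bp, and the peptidase Blmh 328 and 0 bp. Inside genes the ratio of the total in lysine to that in PBS was 0.791 for the assembly factors and cofactors, 0.711 for the regulators, 0.831 for ubiquitin and delivery and 0.584 for peptide transport and trimming. With widening these ratios were 0.952, 0.760, 1.02 and 0.511, so that the total of the ubiquitin list changed sign.

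The complexes built like the lid, the COP9 signalosome and the initiation factor eIF3, differed from each other in the direction of their totals. Of 10 COP9 genes 7 had a peak in lysine and 6 in PBS, with 3619 bp in lysine and 2679 bp in PBS, a ratio of 1.35. Cops3 had 626 bp in lysine and 984 bp in PBS, Cops7a 731 and 490 bp, Cops2 784 and 216 bp, and Cops8 378 and 0 bp. Of 13 eIF3 genes 8 had a peak in each library, with 1070 bp in lysine and 1502 bp in PBS, a ratio of 0.712. Eif3k had 224 bp in lysine and 187 bp in PBS, Eif3e 199 and 198 bp, Eif3h 0 and 257 bp, and Eif3a 50 and 252 bp. Marked genes numbered 4 in lysine and 1 in PBS for COP9 and 0 in both for eIF3. Over all protein-coding genes 9.02% were marked in lysine and 11.4% in PBS, and 31.4% and 34.0% had a peak. Of the COP9 genes 3 were shorter in lysine and 4 longer, and of the eIF3 genes 5 were shorter and 4 longer. With widening the ratio was 1.36 for COP9 and 0.911 for eIF3, while all genes had 0.796 inside genes and 0.829 widened.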

How the data were processed

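Chromatin was fixed with formaldehyde and the ChIP and input DNA was sequenced in paired-end mode, per the labels' protocols. Groups came from the sample titles. The inputs were not used here. Tools listed in the submitters' processing notes, without roles, are MACS2 2.1.2, Bowtie2 2.3.4.1, cutadapt 1.18, Trimmomatic 0.38, Picard, FastQC and ChIPseeker, on GRCm38. Peaks were deposited per library. Calling thresholds, and any use of inputs as controls, were not given in the sources used here. For each peak the deposited fold is a linear ratio over local background, and its deposited significance is a −log10 q. Both depend on depth and were used only to rank or filter peaks within a list.

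Covered length is the bp of a gene, end to end, under the authors' broad peaks, with genes and promoter windows from RefSeq GRCm38.p6. The gene table has no exons, so exons and introns were not separated. Peaks were partners if at least 1 bp overlapped. Where a gene has 2 windows, the start nearer the peak was used. A gene was marked at 500 bp. The related list entry Paaf1 matched no protein-coding gene, and Eif3j was matched as Eif3j1. Of the related lists 1 further gene is not reported here and is left out of the counts. All genes with a covered length are described, and from each related list the 2 genes longest covered on average and the 2 that differed most, to which Nfe2l1 was added after its values were seen. The genes and lists were chosen with earlier results of these data known. Covered lengths were tested on simulated data and against bedtools 2.31.1, with 0 differences. Python 3.11.15, numpy 2.4.6, pandas 2.3.3, scipy 1.17.1 and matplotlib 3.10.9 were used. Alternatives were stricter peak minima, equal peak numbers, narrow blocks, genes widened by 1 kb, overlapping genes left out and other minimum lengths.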

Additional observations from a re-analysis of the deposited data

How the results depend on the processing

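With 1 library per condition and no read totals, depth and chance between cultures set limits that cannot be measured here. No paired analysis was possible because each condition has 1 library and no replicate numbers. The 20S core stayed shorter in lysine under every alternative run (-4240 to -648 bp, main value -2223 bp), as did the total of the 46 genes. At a −log10 q of at least 5 both signs rested on Psma5. Its -749 bp exceeded the -648 bp of the core and the -645 bp of the total, while Psma2, Psma4 and Psma6 were longer in lysine. Genes with a peak stayed within 1.5 times except at a −log10 q of at least 5 (12 in lysine and 13 in PBS) and with at least 200 bp covered (10 and 14). Of the 37 genes with a peak, 9 kept their direction throughout, 16 came to no difference under some alternative and 12 changed sign.

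At a −log10 q of at least 2, 1 gene was marked in lysine and the immunoproteasome differed by -855 bp. At 5, 0 genes were marked in lysine and 2 in PBS, 10 were shorter and 8 longer, and the differences were -645 bp in total, -648 bp for the core, 23 bp for the base, -177 bp for the lid and 0 bp for the immunoproteasome, and Psma1 (-59 bp), Psmd7 (-224 bp), Psma4 (216 bp), Psmd3 (-34 bp), Psme3 (148 bp) and Psma6 (421 bp) turned. At a fold of at least 4, 1 gene was marked in lysine, the base differed by 278 bp, the lid by -133 bp and the immunoproteasome by -872 bp, and Psma1 (-59 bp), Psmd7 (-224 bp) and Psme2 (-124 bp) turned. Given equal numbers of peaks the total was -1817 bp, the base 234 bp and the immunoproteasome 362 bp, and Psmb9 turned (87 bp). By narrow blocks 0 genes were marked in lysine and 2 in PBS, the total was -1967 bp, the core -1072 bp, the lid -9 bp and the immunoproteasome -675 bp, and Psma6 (22 bp) and Psme2 (-124 bp) turned. With genes widened by 1 kb, 10 were marked in lysine and 15 in PBS, 7 were longer, and the differences were -8417 bp in total, -4240 bp for the core, -507 bp for the base, -113 bp for the lid and -1373 bp for the immunoproteasome. There Psmd5 (-151 bp), Psmc4 (-93 bp), Psma1 (-2 bp), Psmd7 (-121 bp), Psma4 (137 bp), Psmc5 (-74 bp), Psma2 (-134 bp) and Psme2 (-124 bp) turned. Without genes that overlap another the total was -1613 bp and the immunoproteasome 452 bp. At least 250 bp were covered in 7 genes in lysine and 8 in PBS, and at least 1000 bp in 2 and 3. Marked shares over all genes are given only for the main setting, 9.02% in lysine and 11.4% in PBS. The marked counts of the other settings have no such background here. The causes were not tested.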
